A study of Mus musculus with 24 samples.

Results

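The transcripts described here are 7 genes for secreted proteins best known from mouse salivary glands, Bpifa2, Amy1, Cst10, Dcpp1, Smr3a, Klk1 and Klk1b22, measured in RNA of lacrimal glands. They were chosen by their difference between NOD females and NOD males and by the wide spread of the NOD female arrays, so every NOD value below is a description and carries no test. All 7 had a probe set on the Affymetrix 430A 2.0 GeneChip (10 probe sets of 22626), whereas only Bpifa2 and Amy1 had a named probe on the CodeLink Bioarray (2 probes of 17440). Klk1b22 had no probe set of its own, since its only probe set also matches Klk1b9, and a Dcpp1 probe set is shared with Dcpp2 and Dcpp3.

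Exorbital lacrimal glands were taken after disease onset from adult female and male mice of the MRL/lpr and NOD strains, which are both used as models of Sjögren syndrome. MRL/lpr mice of both sexes carry the lpr mutation of the death receptor Fas, and NOD mice develop autoimmunity from their inbred background, so the design holds no healthy strain. Each sample was RNA from glands pooled from 5 to 8 mice, with 3 pools per sex and strain on each platform and 24 arrays in all. The CodeLink labels also hold the word placebo, and no treatment is described in the methods. Per the methods, the same RNA preparations went onto both platforms. Pools are named here by strain, sex and the replicate number of the labels, and single animals were not measured. In pooled tissue, more cells of a type and more RNA per cell cannot be told apart.

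Parotid, submandibular and lacrimal glands are exocrine glands whose acinar cells make most of the secreted protein. The parotid gland is known for amylase and for Bpifa2, the parotid secretory protein, and the sublingual gland for the demilune cell proteins of the Dcpp family. In mice, the granular ducts of the submandibular gland make tissue kallikreins and are larger in males. The glands lie close to each other on the side of the face, with the exorbital lacrimal gland in front of the ear beside the parotid gland.

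Upstream sequences of the member genes are shown because the transcripts were high together in the same pools, as described below. Each is the stretch of 200 bases before the start site in the RefSeq table of build GRCm38.p6, 5′ to 3′ on the strand of the gene, with every TATAA on that strand in capitals. Amy1 has 2 listed start sites, and the upstream one is shown. For Smr3a and Dcpp1 the window lies inside the span of the gene given below, since the listed start is not its outer end.
Bpifa2, chr2:154008076-154008275, strand +: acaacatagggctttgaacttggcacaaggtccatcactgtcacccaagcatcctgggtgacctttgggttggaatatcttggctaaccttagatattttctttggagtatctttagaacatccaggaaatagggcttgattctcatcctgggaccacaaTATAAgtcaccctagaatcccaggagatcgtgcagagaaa
Amy1, chr3:113577751-113577950, strand -: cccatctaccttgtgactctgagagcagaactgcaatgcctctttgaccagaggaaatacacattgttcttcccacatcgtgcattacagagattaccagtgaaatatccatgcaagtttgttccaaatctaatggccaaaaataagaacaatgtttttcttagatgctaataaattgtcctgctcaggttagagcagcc
Cst10, chr2:149405049-149405248, strand +: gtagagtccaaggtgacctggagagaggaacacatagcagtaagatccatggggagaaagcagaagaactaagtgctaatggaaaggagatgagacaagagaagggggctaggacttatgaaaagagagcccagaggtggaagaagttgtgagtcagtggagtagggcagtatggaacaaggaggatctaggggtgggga
Dcpp1, chr17:23880676-23880875, strand +: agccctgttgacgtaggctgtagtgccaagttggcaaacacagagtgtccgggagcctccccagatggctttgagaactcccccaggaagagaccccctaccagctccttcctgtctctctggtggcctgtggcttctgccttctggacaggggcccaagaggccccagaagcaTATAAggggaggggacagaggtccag
Smr3a, chr5:88002325-88002524, strand +: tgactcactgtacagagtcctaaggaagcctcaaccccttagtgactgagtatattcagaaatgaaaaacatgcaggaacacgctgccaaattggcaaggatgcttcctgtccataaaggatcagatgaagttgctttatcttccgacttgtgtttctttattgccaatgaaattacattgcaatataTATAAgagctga

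TATAA, the core of the TATA box, began 40 bases before the start in Bpifa2, 26 bases before it in Dcpp1 and 12 bases before it in Smr3a, and it was not in the Cst10 window or in the Amy1 window shown. At the downstream Amy1 start, which is not shown, TATAA began 153 and 63 bases before the start. Of 32851 mouse windows that ran from 250 bases before the start to 50 after it, 3.52% had TATAA on the strand of the gene between 40 and 16 bases before the start, as Bpifa2 and Dcpp1 did. AGAACA, the core hexamer of the element bound by androgen and glucocorticoid receptors, was searched on both strands of these windows and occurred in 19.0% of all windows. It was found once in Bpifa2, 3 times at the Amy1 start shown and once at the other Amy1 start. The windows of Cst10, Dcpp1, Smr3a, Klk1 and Klk1b22 had none. CATATG, a form of the E-box that acinar bHLH factors can bind, was in 3.91% of all windows and in no window of a member. The letters say nothing of whether a factor was bound.

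On Affymetrix, in which each array was scaled to a trimmed mean of 500 and a signal of 100 or less was treated as too low to give a ratio, all 10 member probe sets were highest in NOD female 3 among the NOD females. On CodeLink, in which intensities are relative to the array median and the scanner software flags spots at background, both member probes were also highest in that pool. NOD female 2 held the next value for the probes of Bpifa2, Amy1, Cst10, Dcpp1 and Smr3a on Affymetrix, and for those of Bpifa2 and Amy1 on CodeLink. For Bpifa2, Amy1, Cst10, the Dcpp probe sets and Smr3a, the NOD males lay at or under 126 on Affymetrix, apart from Bpifa2 in NOD male 1.

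The labels of sex were checked with Y-linked genes and Xist, the RNA of the inactive X chromosome, and NOD female 2 stood apart on Affymetrix. Eif2s3y, a Y-linked translation factor, was 128 in NOD female 2, against 0.675 to 7.82 in the other females and 329 to 545 in the males. Kdm5d, a Y-linked histone demethylase, was 156 in NOD female 2, against 12.5 to 69.3 in the other females and 109 to 212 in the NOD males. Uty, another Y-linked gene, was 11.8 in that pool, below NOD females 1 and 3 (30.6 and 54.7) and the males (128 to 186). Xist was 961 there, against 1579 and 1355 in NOD females 1 and 3, 2273 to 3987 in the MRL/lpr females and 24.2 to 181 in the males. The Y-linked genes thus differed in this pool. On CodeLink, NOD female 2 had 0.218 for Eif2s3y, within the 0.144 to 0.272 of the females and far below the males (8.38 to 13.9). The CodeLink Kdm5d probe set the sexes apart within each strain, but in opposite directions. It was 100.2, 139 and 126 in NOD females 1 to 3 and 24.6 to 33.7 in the NOD males. In MRL/lpr each male lay above each female for this probe. NOD female 3 and MRL/lpr female 1 lay with the females for Eif2s3y on both platforms. The part of this in the values of NOD female 2 was not tested, and NOD means are also given below without that pool.

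Bpifa2 (Gene ID 19194, chr2:154008276-154016073) encodes the parotid secretory protein, which binds lipopolysaccharide. Its Affymetrix signal was 712 in NOD female 1, 9076 in NOD female 2 and 72483 in NOD female 3, against 222, 9.59 and 75.7 in the NOD males. Its CodeLink intensity was 45.6, 323 and 3666 in the same females and 7.10, 0.847 and 0.771 in the males, and the spot of NOD female 3 was flagged as saturated by the scanner software and those of NOD males 2 and 3 as at background. No NOD female overlapped the NOD males on either platform, yet the SD of the females was above their mean (27424 ± 39246 on Affymetrix and 1345 ± 2015 on CodeLink, SD, n = 3). NOD male 1 was the highest male on both, at least 8.38-fold above NOD male 2 on CodeLink and at least 2.22-fold on Affymetrix. The mean of the NOD females was 267-fold that of the males on Affymetrix, 47.7-fold without NOD female 3 and 357-fold without NOD female 2. NOD female 3 stood 7.99-fold above NOD female 2, NOD female 2 stood 12.8-fold above NOD female 1, and NOD female 3 stood 102-fold above NOD female 1, so the females formed a ladder whose middle step is NOD female 2.

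Amy1 (Gene ID 11722, chr3:113555952-113577750) encodes the starch-cleaving amylase of saliva, and its probes may also read the pancreatic amylase genes, which are close copies. Its Affymetrix signal was 253, 2135 and 76448 in NOD females 1 to 3 and 60.02, 48.8 and 126 in the NOD males. Its CodeLink intensity was 0.547, 4.22 and 472 in the females and 0.558, 0.687 and 0.0249 in the males, with NOD female 1 and all males flagged as at background. On Affymetrix each female was above each male, whereas on CodeLink NOD female 1 lay among the males. NOD female 3 exceeded NOD female 2 by 35.8-fold on Affymetrix and by 112-fold on CodeLink. The mean of the NOD females was 336-fold that of the males on Affymetrix, 15.3-fold without NOD female 3 and 490.4-fold without NOD female 2. On CodeLink it was at least 273-fold, and at least 4.10-fold without NOD female 3.

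Cst10 (Gene ID 58214, chr2:149405249-149410278) is a cystatin, a family of cysteine protease inhibitors. Its signal was 145, 1278 and 65792 in the NOD females and 6.67, 8.79 and 12.8 in the males. The females did not overlap the males, and NOD female 3 was 51.5-fold above NOD female 2. The mean of the females was at least 224-fold that of the males, at least 7.11-fold without NOD female 3 and at least 329.7-fold without NOD female 2. Smr3a (Gene ID 20599, chr5:87991555-88008534), a salivary prohormone-like protein first known as androgen regulated in the submaxillary gland, gave 117, 543 and 45236 in the females and 65.6, 15.2 and 11.8 in the males. NOD female 3 was 83.4-fold above NOD female 2 for Smr3a, whose NOD female mean was at least 153-fold that of the males and at least 227-fold without NOD female 2. Without NOD female 3, the highest remaining NOD value of Smr3a was the 543 of NOD female 2.

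Dcpp1 (Gene ID 13184, chr17:23880669-23882853) is a demilune cell and parotid protein. Its own probe set gave 16.7, 176 and 13295 in the NOD females and 63.4, 63.2 and 46.2 in the males. The probe set that Dcpp1 shares with Dcpp2 and Dcpp3, near-identical neighbours of the same family, gave 13.9, 317 and 31775 in the females and 91.1, 52.8 and 12.8 in the males. For both, NOD female 1 was below at least 2 of the males and NOD female 3 was far above the rest. Without NOD female 3, the highest remaining NOD value of Dcpp1 was the 176 of NOD female 2. The NOD female mean of Dcpp1 was at least 44.96-fold that of the males, at least 0.965-fold without NOD female 3 and at least 66.6-fold without NOD female 2.

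Klk1 (Gene ID 16612, chr7:44225360-44229622), the true tissue kallikrein that releases kinins from kininogen, was read by 3 probe sets. The brightest of them in NOD female 3 gave 45.96, 173 and 3728 in the NOD females and 216, 138 and 234 in the males. The next gave 50.1, 16.8 and 3256 in the females and 249, 312 and 252 in the males, and the dimmest gave 97.5, 20.2 and 1918 in the females and 186, 87.1 and 235 in the males. For all 3, NOD females 1 and 2 lay at or below the highest male and only NOD female 3 was above the males. Klk1b22 (Gene ID 13646, chr7:44112673-44116922), a kallikrein that binds epidermal growth factor, was read only by the probe set shared with Klk1b9. That probe set went the other way, with 164, 50.4 and 365 in the NOD females and 1112, 1256 and 989.6 in the males, so every male exceeded every female, and the mean of the females was 0.173 of that of the males, and 0.236 without NOD female 2.

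**Figure D1:**
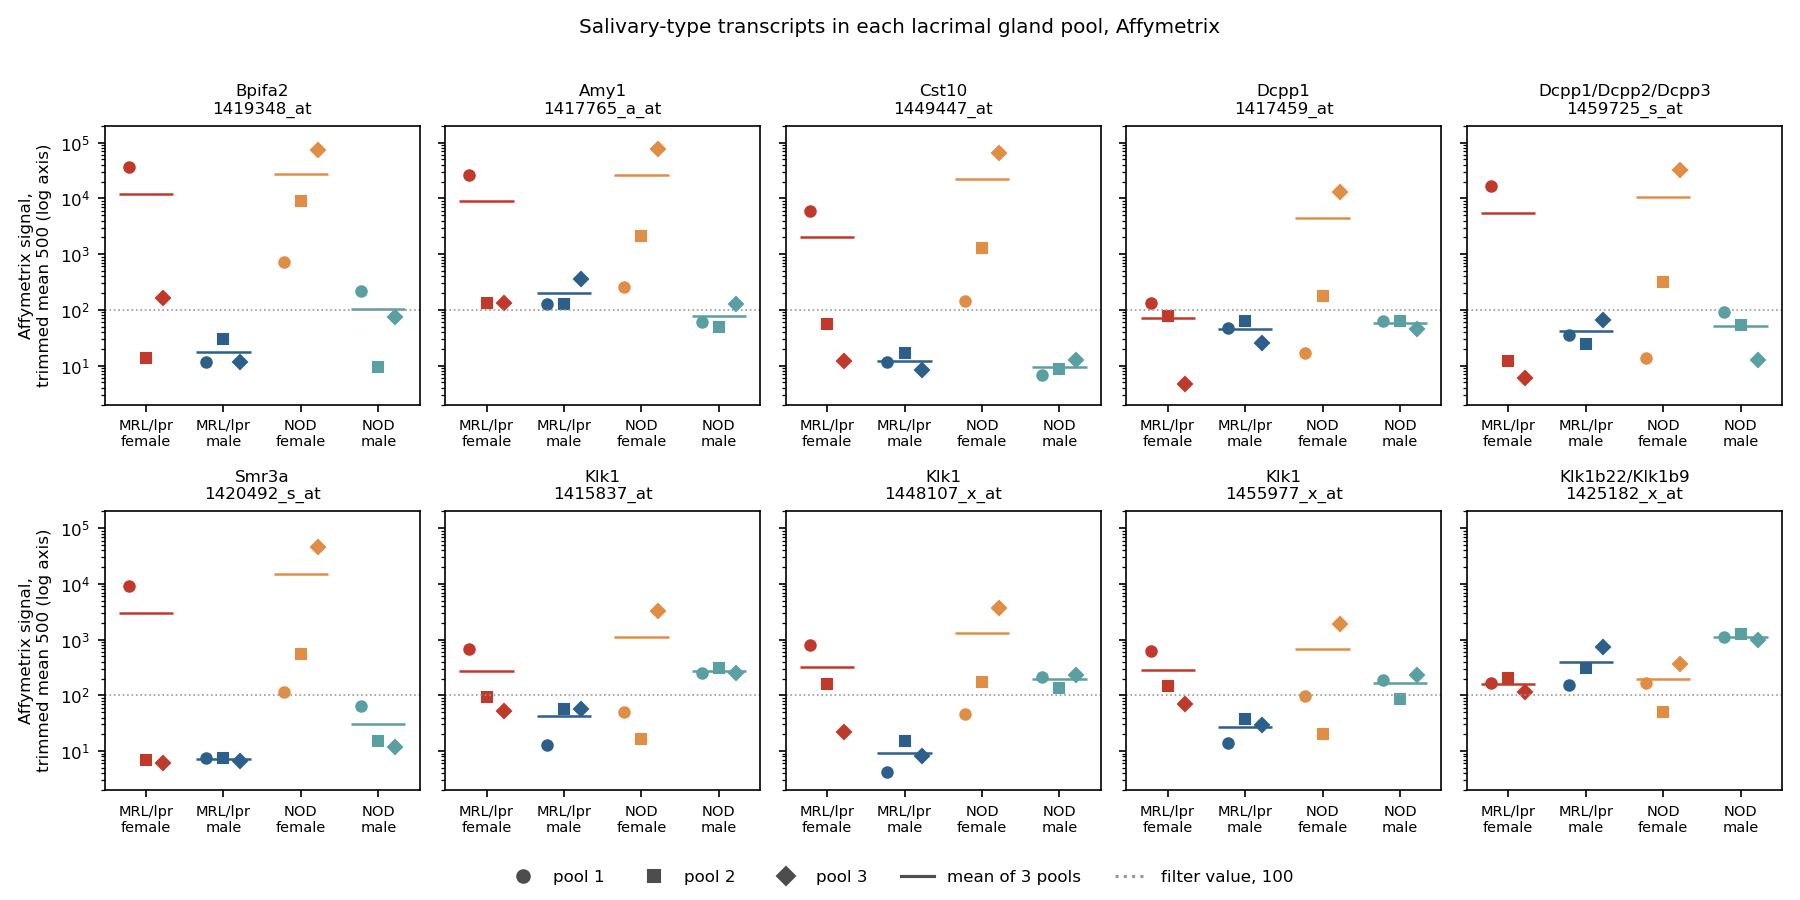
Affymetrix signal (log axis, arrays scaled to a trimmed mean of 500) of the 10 member probe sets in each of the 12 pools, with the mean of 3 pools as a line and the filter value of 100 dotted. NOD female 3 is the highest NOD female for all 10 probe sets and MRL/lpr female 1 the highest MRL/lpr female for 9, while Klk1b22/Klk1b9 is highest in NOD males.

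The kallikrein genes of this cluster are close copies, and a probe set can read more than a single copy. The upstream windows of Klk1 and Klk1b22 are shown for this likeness, with the runs of 13 bases that they share, the longest, in capitals.
Klk1, chr7:44225160-44225359, strand +: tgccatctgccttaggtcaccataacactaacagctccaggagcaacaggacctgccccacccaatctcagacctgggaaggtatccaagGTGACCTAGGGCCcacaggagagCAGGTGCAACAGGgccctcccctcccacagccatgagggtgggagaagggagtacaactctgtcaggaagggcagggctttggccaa
Klk1b22, chr7:44112473-44112672, strand +: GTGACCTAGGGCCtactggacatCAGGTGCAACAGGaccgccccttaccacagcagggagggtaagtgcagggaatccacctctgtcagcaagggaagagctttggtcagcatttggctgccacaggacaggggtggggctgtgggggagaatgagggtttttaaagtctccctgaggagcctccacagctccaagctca

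The windows share 2 runs of this length. The first began 110 bases before the listed start of Klk1 and 200 bases before that of Klk1b22, and the second 87 and 177 bases before them, so the listed starts are offset against each other. A local alignment of their 300-base windows was 81.2% identical over 207 columns. The Klk1 probe sets were highest in NOD female 3, and the Klk1b22/Klk1b9 probe set in the NOD males.

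The sex difference in MRL/lpr mice was not used in the choice of members. In these mice the members were high together in MRL/lpr female 1. Bpifa2 was 35864 in MRL/lpr female 1 and 13.9 and 162 in MRL/lpr females 2 and 3 on Affymetrix, and 11.6, 29.7 and 11.7 in the males. On CodeLink it was 1036, again flagged as saturated, in MRL/lpr female 1, 1.36 and 0.520 in the other females, and 0.507, 0.854 and 0.749 in the males, with MRL/lpr female 3 and the males flagged as at background. MRL/lpr female 1 was 221-fold above MRL/lpr female 3 and at least 359-fold above MRL/lpr female 2 on Affymetrix.

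Amy1 was 26284 in MRL/lpr female 1, 135 and 134 in the other females and 126, 128 and 351 in the males on Affymetrix, and on CodeLink it was 72.6 against 0.513 and 0.835 in the other females and 1.07, 1.13 and 1.45 in the males. The other females, flagged as at background on CodeLink, lay at the level of the males or below it on both platforms. Cst10 was 5978 in MRL/lpr female 1, at least 59.8-fold above the other MRL/lpr females (55.4 and 12.1), and between 8.32 and 16.7 in the males. Smr3a was 9178 in that pool, at least 91.8-fold above the other females (6.93 and 6.07), and between 6.66 and 7.43 in the males.

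The Dcpp probe sets parted in this pool. The shared Dcpp1/Dcpp2/Dcpp3 probe set was 16367 in MRL/lpr female 1, against 12.1 and 6.07 in the other females and 24.1 to 64.9 in the males, while the probe set of Dcpp1 alone was only 134, against 78.0 and 4.72. In NOD female 3, by contrast, both Dcpp probe sets were high. NOD female 3 was 98.9-fold above MRL/lpr female 1 for Dcpp1 alone and 1.94-fold above it for the shared probe set. This ratio was 2.02 for Bpifa2, 2.91 for Amy1, 4.93 for Smr3a, 11.01 for Cst10, between 3.04 and 4.70 for the 3 Klk1 probe sets and 2.16 for Klk1b22/Klk1b9, so the members did not keep a fixed proportion between the 2 pools.

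Klk1 was 693, 793 and 630.3 on its 3 probe sets in MRL/lpr female 1. The other females lay between 22.3 and 158, and the males between 4.21 and 57.6. The Klk1b22/Klk1b9 probe set did not follow, with 169, 203 and 113 in the MRL/lpr females and 152, 310.1 and 729 in the males, whose range overlapped that of the females. Of the 10 probe sets it was the only one not highest in MRL/lpr female 1.

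Over the 3 pools of each sex, no member probe passed the limma test for a sex difference in MRL/lpr on either platform (adjusted p from 0.129 to 0.932 for 10 Affymetrix probe sets, and 0.306 and 0.664 for the CodeLink probes of Bpifa2 and Amy1). The error of this fit is shared with the NOD female arrays, by whose wide spread the members were chosen. That choice can widen the error, so the lack of a pass does not show that a sex difference is absent. At an unadjusted p under 0.05, 4 Affymetrix probe sets and 0 CodeLink probes passed, against 24.6% of all Affymetrix probe sets and 32.4% of all CodeLink probes tested, and the methods' t-test gave 0 members on either platform before adjustment. Over all probes tested, 12.8% passed on Affymetrix (2068 of 16167) and 21.8% on CodeLink (2860 of 13105). By direction, 6.83% of all probe sets passed as higher in females and 5.96% as higher in males on Affymetrix, and 13.7% and 8.08% of all probes on CodeLink. The limma fit gave Bpifa2 a log2 difference, female minus male, of 3.55 ± 1.48 (SE, adjusted p = 0.129) on Affymetrix and of 3.39 ± 2.13 (adjusted p = 0.306) on CodeLink. The Klk1b22/Klk1b9 probe set was the only member on the male side (limma, -0.88 ± 0.42, adjusted p = 0.198). The median member difference was 2.02 on Affymetrix, where that of all tested probes was -0.01.

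Leaving out single arrays moved these values. Without MRL/lpr female 1, the log2 difference of Bpifa2 was 0.79 on Affymetrix and 0.21 on CodeLink, and that of Amy1 turned to -0.33 and -0.56. Without NOD female 3, whose spread enters the shared error, the brightest and the dimmest Klk1 probe set passed in limma (adjusted p = 0.0333 and 0.0342), each higher in females. Bpifa2 passed on Affymetrix without MRL/lpr female 2 (adjusted p = 0.0147), the brightest Klk1 probe set without MRL/lpr female 3 (adjusted p = 0.0387) and Klk1b22/Klk1b9 without MRL/lpr male 1 (adjusted p = 0.0468), limma values with Benjamini-Hochberg adjustment over all probes. limma draws the error of a probe towards that of probes of like intensity, and for Bpifa2 on Affymetrix this lowered the residual SD from 2.98 of its own to 1.81. Without the intensity trend that SD was 2.53 and the adjusted p was 0.343.

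The spread among pools was measured as the log2 ratio of the highest to the lowest array of a group, with 50 added to an Affymetrix signal and 0.5 to a CodeLink intensity. Its median over the member probe sets was 7.11 in NOD females and 5.07 in MRL/lpr females on Affymetrix, against 0.72 in NOD males and 0.52 in MRL/lpr males. Over all tested probe sets the median spread was between 0.49 and 0.59 in the 4 groups, so the member median in males lay near it. Single members in males were wider: Bpifa2 spread by 2.19 in NOD males on Affymetrix (wider than 99.5% of tested probe sets) and by 2.58 on CodeLink (99.4%), through NOD male 1, and Klk1b22/Klk1b9 by 1.95 in MRL/lpr males (97.3%). Amy1 spread by 1.19 in MRL/lpr males on Affymetrix (81.8%) and by 1.18 in NOD males on CodeLink (96.9%), and the shared Dcpp probe set by 1.17 in NOD males (85.6%). On CodeLink, Bpifa2 and Amy1 had spreads of 6.31 and 8.82 in NOD females and 9.99 and 6.17 in MRL/lpr females, where all tested probes had medians of 0.40 and 0.31. Bpifa2 in MRL/lpr females had a wider Affymetrix spread (9.14) than 99.99% of tested probe sets. The Klk1b22/Klk1b9 probe set was narrow there, with a spread of 0.63 in MRL/lpr females, wider than 55.7% of tested probe sets.

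NOD female 3 held the highest NOD female value for 29.3% of all tested Affymetrix probe sets and 24.97% of CodeLink probes, and MRL/lpr female 1 held the highest for 27.9% and 42.5%. Of the member probe sets, 10 of 10 were highest in NOD female 3 and 9 of 10 in MRL/lpr female 1. The members were chosen by the spread of the NOD female arrays, so the count in NOD female 3 follows in part from that choice. The 10 probe sets hold 3 of Klk1 and 2 of Dcpp1, so they are not separate genes. Genes that stood apart were then counted as those at least 4-fold above both other pools of their group, on the scale with 50 or 0.5 added, and with the pool at 1000 or more on Affymetrix or 10 or more on CodeLink. On Affymetrix, 9 of 9528 genes (0.0945%) did so in NOD female 3 and 6 (0.063%) in MRL/lpr female 1, while 1 gene did so in NOD male 1 and 0 in the other 9 pools. On CodeLink, 13 of 8728 genes (0.149%) did so in NOD female 3 and 4 (0.0458%) in MRL/lpr female 1, while NOD female 1 had 2, NOD male 1 had 1 and the other 8 pools had 0.

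The Affymetrix genes of NOD female 3 were 6 members, Smr3a, Dcpp1, Cst10, Amy1, Klk1 and Bpifa2, together with Chia1, 2310057J18Rik and Ggh. Those of MRL/lpr female 1 were Bpifa2, Smr3a, Amy1, Cst10, Chia1 and 2310057J18Rik, all 6 of which are also among the 9 of NOD female 3 (66.7% of the latter). All 4 CodeLink genes of MRL/lpr female 1, Bpifa2, Chia1, Amy1 and the kallikrein Klk1b24, were among the 13 of NOD female 3 (30.8%). The members were chosen on the NOD female arrays and not on the MRL/lpr arrays. With no minimum level, of the 6370 genes tested on both platforms, Bpifa2, Amy1 and Chia1 stood 4-fold apart on both in NOD female 3 and likewise in MRL/lpr female 1, and 0 genes stood above in any of the other 10 pools. Bpifa2 and Amy1 were also at least 4-fold below both other pools in NOD female 1.

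**Figure D2:**
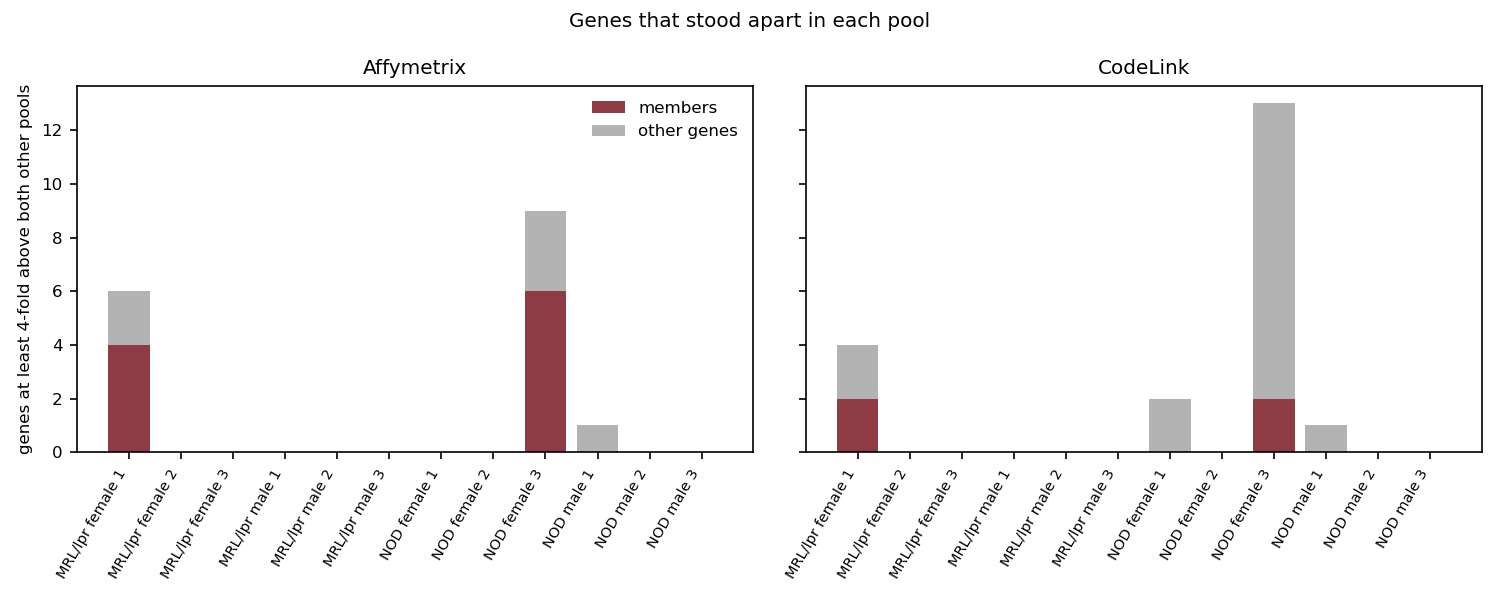
Number of genes at least 4-fold above both other pools of their group, for each of the 12 pools and each platform, with members in dark red and other genes in grey. Counts reach 9 on Affymetrix and 13 on CodeLink in NOD female 3, and 6 and 4 in MRL/lpr female 1.

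The gene of NOD male 1 was a heat-shock protein gene, Hspa1b on Affymetrix and Hspa1a on CodeLink, which are near-identical copies. Hspa1b was 3974, 9464 and 12536 in the NOD females and 3740, 413 and 409 in the NOD males. Hspa1a was 15.99, 40.4 and 55.1 in the NOD females and 14.9, 2.28 and 2.60 in the NOD males. The order of the NOD females and the position of NOD male 1 above the other males were thus those of Bpifa2. In MRL/lpr the order was another, since MRL/lpr female 1 had 565 within the 511 to 588 of the females on Affymetrix, and the CodeLink females lay between 3.40 and 4.02. Its part in the NOD values was not tested.

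Chia1, the acidic chitinase, is no member and is named because its pattern was among those most like Bpifa2. Its Affymetrix signal was 113, 697 and 59966 in the NOD females and 14533, 12.1 and 8.10 in the MRL/lpr females, with male arrays between 11.99 and 230.2. Its CodeLink intensity was 0.898, 4.72 and 358 in the NOD females and 69.4, 0.236 and 0.261 in the MRL/lpr females. Its high pools were those of Amy1 on both platforms. 2310057J18Rik behaved otherwise: it was 8755, 9733 and 72724 in the NOD females, 11815, 670.4 and 351 in the MRL/lpr females, and between 71158 and 131718 in the males of both strains, so that NOD female 3 reached the level of the males. Ggh, gamma-glutamyl hydrolase, was 2351, 2236 and 13917 in the NOD females and 1363 to 1544 in the NOD males.

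Several CodeLink genes of NOD female 3 did not stand apart on Affymetrix, and the ones given here were picked after their values were seen. Gata2, a transcription factor, was 557 in NOD female 3 and 0.558 and 0.387 in the other NOD females on CodeLink, but 266, 188 and 40.3 on Affymetrix. Egr3, an early growth response factor, was 116 in NOD female 3 and 7.77 in MRL/lpr female 1 on CodeLink, with all other arrays at or under 1.61, while its Affymetrix signals ran from 11.8 to 124. Crisp3, a cysteine-rich secretory protein of salivary gland, was 64.1 in NOD female 3, 9.47 in MRL/lpr female 1 and 3.15 to 5.45 in the other arrays on CodeLink, and at most 103 on Affymetrix. Klk1b24 was 37.5 in NOD female 3, 17.9 in MRL/lpr female 1 and at most 12.7 elsewhere on CodeLink, and 96.4 and 8.77 in these pools on Affymetrix, where NOD males had 607 to 845.

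The same pools were high on both platforms. For Bpifa2 the 4 highest pools were NOD female 3, MRL/lpr female 1, NOD female 2 and NOD female 1, in this order, on CodeLink and on Affymetrix. For Amy1 they were NOD female 3, MRL/lpr female 1, NOD female 2 and MRL/lpr male 3 on both. Over the 12 pools, the log2 values of the 2 platforms correlated at r = 0.98 for Bpifa2 and 0.97 for Amy1 (Spearman's rho 0.80 and 0.68), a description in which the 12 points are the same pools and a few high pools carry r. The deviations of all genes were shared more weakly. Over 6357 genes, an array's deviation from its group mean correlated with that of the equally numbered array on the other platform at 0.113 to 0.304 for the MRL/lpr female pools and at 0.0232 to 0.125 for the NOD female pools. Pairs with unequal numbers gave -0.21 to 0.0468 and -0.131 to 0.0081.

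**Figure D3:**
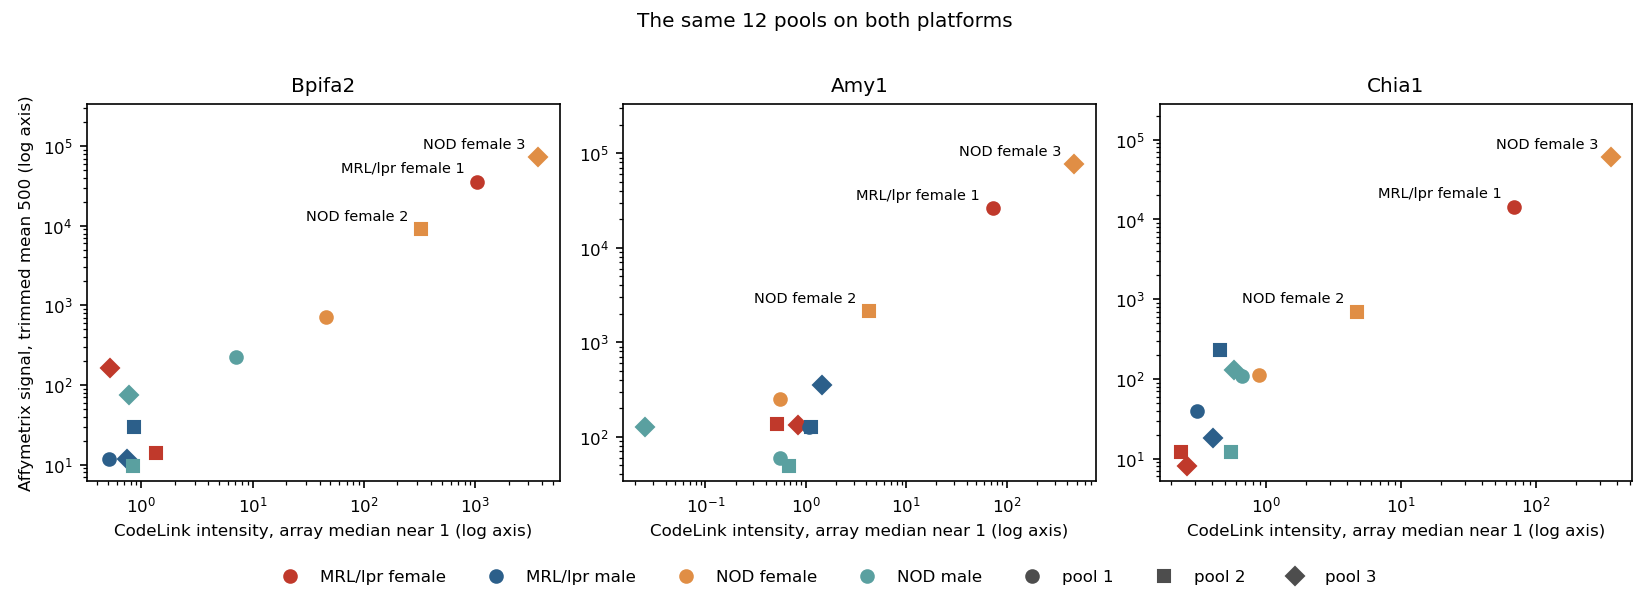
CodeLink intensity against Affymetrix signal (both on log axes) for Bpifa2, Amy1 and Chia1 in the 12 pools, coloured by group and shaped by pool number. NOD female 3 is the highest and MRL/lpr female 1 the next on both axes in all 3 panels.

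The genes most like Bpifa2 over the 12 Affymetrix arrays, by Pearson r of log2 values, were Smr3a (0.95), Cst10 (0.95), Amy1 (0.93) and Chia1 (0.92), followed by Dpcd (0.84) and Igfbp3 (0.82). On CodeLink they were Api5 (0.94), Cul4b (0.93) and Chia1 (0.92), and Amy1 ranked 18. The genes within the 100 most alike on both platforms were Chia1, Amy1, Errfi1, Ggh, Dhrs7, Igfbp3 and Ivns1abp. The genes most like Klk1 on Affymetrix were Apobr (0.88), Smr3a (0.88), Chia1 (0.86) and Cst10 (0.85). Over 12 arrays, with 2 of them far above the rest, such values mainly say which arrays were high. Api5 and Cul4b reached only 13.3 and 2.29 at their highest.

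The remaining tested genes on a list of parotid and minor salivary acinar markers did not reach the 4-fold mark in these pools. List genes taken as members were chosen by their NOD female spread, so the remainder is not a neutral sample of the list. Of 8 tested on Affymetrix that are not members and 5 on CodeLink, 0 stood 4-fold apart in NOD female 3 or in MRL/lpr female 1. In the limma test of MRL/lpr, 2 of the 8 passed as higher in females and 2 as higher in males on Affymetrix, and 2 and 1 of the 5 did so on CodeLink, with Car6 on the female and Lpo on the male side on both. Over all probes the shares were 6.83% and 5.96% on Affymetrix and 13.7% and 8.08% on CodeLink. The median log2 difference of NOD female 3 from the mean of the other NOD females was -0.08 on Affymetrix and 0.38 on CodeLink, against -0.02 and -0.09 over all genes. In NOD female 3, 5 of the 8 lay below the mean of the other NOD females on Affymetrix, and 4 of the 5 lay above it on CodeLink. Lpo and Car6, lactoperoxidase and a secreted carbonic anhydrase that salivary and lacrimal glands both make, were high in all 12 pools: Lpo lay between 22645 and 82970 and Car6 between 11353 and 73462 on Affymetrix. Mucl2, a mucin-like protein, lay between 66454 and 123885. Some list genes were higher in the same pools as the members. Bpifb1, a relative of Bpifa2, was 34.8, 401 and 1637 in the NOD females and between 2.02 and 118 in the MRL/lpr females, so its log2 difference in NOD female 3 was 3.11 on Affymetrix, and it was 2.07 on CodeLink. Dcpp3, by a probe set other than the shared one, was 79.4, 230.1 and 456 in the NOD females and 377, 93.5 and 91.1 in the MRL/lpr females, with log2 differences of 1.41 in NOD female 3 and 1.59 in MRL/lpr female 1. Prol1, a proline-rich protein of lacrimal and salivary glands, was 45.96, 10.1 and 208 in the NOD females (1.77 in NOD female 3), at most 10.7 in the MRL/lpr females and 460 to 1520 in the males of both strains. Agt, angiotensinogen, was 13.9, 18.5 and 315 in the NOD females on Affymetrix, where it did not pass the filter and was not counted. Bpifa1 and Tff2, secreted by airway and gastric mucosa, were at or under 81.6 in all 12 pools.

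Markers of the submandibular granular duct gave different counts on the 2 platforms. On CodeLink, Klk1b5, Klk1b24 and Crisp3 of 11 genes stood 4-fold apart in NOD female 3 and Klk1b24 in MRL/lpr female 1, whereas 0 of 6 tested on Affymetrix did. The CodeLink sum of the list was 39.0, 37.2 and 168 in the NOD females and 93.4 to 103 in the NOD males. Klk1b11, another kallikrein, was 408, 524 and 244 in the NOD females and 3732 to 4469 in the NOD males on Affymetrix, so NOD female 3 was the lowest. In MRL/lpr, 4 of the 11 on CodeLink and 2 of the 6 on Affymetrix passed as higher in males and 0 as higher in females, where 8.08% of all CodeLink probes and 5.96% of all Affymetrix probe sets passed as higher in males. Egf, epidermal growth factor, was 3154, 3831 and 1863 in the NOD females.

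The list of lacrimal gland markers was not limited to genes that only this gland makes. Its genes Aqp5, Pigr, Ltf and Obp1a were present in every pool. The water channel Aqp5 ranged from 3727 to 9120 on Affymetrix, the immunoglobulin transporter Pigr from 13710 to 43483, lactotransferrin (Ltf) from 19088 to 62389 and the odorant binding protein Obp1a from 72366 to 131954. In NOD female 3 these were 6719, 20114, 25298 and 102560, each the lowest of the NOD females. Other genes of the list were higher in that pool on Affymetrix. Their log2 difference from the mean of the other NOD females was 1.19 for Mup5, 0.86 for Sox10, 0.25 for Tcn2 and 0.09 for Sox9. Mup5 was also higher in MRL/lpr female 1 than the mean of the other MRL/lpr females (1.195). The summed Affymetrix signal of the 15 lacrimal genes was 507078, 554538 and 459763 in NOD females 1 to 3, and 377531, 508018 and 359932 in MRL/lpr females 1 to 3. In NOD female 3, 11 of the 15 lay below the mean of the other NOD females (median log2 difference -0.19), and 8 of 9 did so on CodeLink (median -0.26). In MRL/lpr female 1, 8 of 15 did so on Affymetrix (median -0.06) and 4 of 9 on CodeLink (median 0.08).

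The summed Affymetrix signal of the parotid and minor salivary list, members left out, was 226520, 240684 and 209718 in the NOD females. It was 160016, 237586 and 130949 in the MRL/lpr females, 126968 to 158490 in NOD males and 167994 to 226457 in MRL/lpr males. Lpo, Car6 and Mucl2, high in all pools as given above, make up a large part of this sum. Lacrimal glands also make Lpo and Car6, and Mucl2 is on the lacrimal list as well. The sum therefore cannot show whether the dimmer salivary markers rose in a pool. The exocrine pancreas, which makes its own amylases, was low in all pools: its 14 genes on Affymetrix summed to 596, 1555 and 1493 in the NOD females and to 518 to 761 in the MRL/lpr females, and 0 stood 4-fold apart in either high pool. Rnase1, a ribonuclease of this list, was at 36.2, 40.3 and 477 in the NOD females, below that minimum. Its log2 difference in NOD female 3 was 2.58 on Affymetrix and 1.09 on CodeLink. Duct epithelium genes differed by a median of 0.03 (Affymetrix) and 0.11 (CodeLink) in NOD female 3. Fat genes did so by 0.45 and 0.46, and summed to 603, 1078 and 1099 in the NOD females on Affymetrix.

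Immune and muscle genes gave the following sums. The summed T cell genes on Affymetrix were 308, 969 and 461 in the NOD females and 3082 to 3481 in the NOD males, and 1845, 1696 and 1356 in the MRL/lpr females. The summed macrophage genes were 7251, 7740 and 6889 in the NOD females. In skeletal muscle genes, NOD female 3 had 529 between 322 and 1189 in the other NOD females. Whether parotid or other salivary tissue was dissected with the lacrimal glands of NOD female 3, NOD female 2 and MRL/lpr female 1 was not tested.

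**Figure D4:**
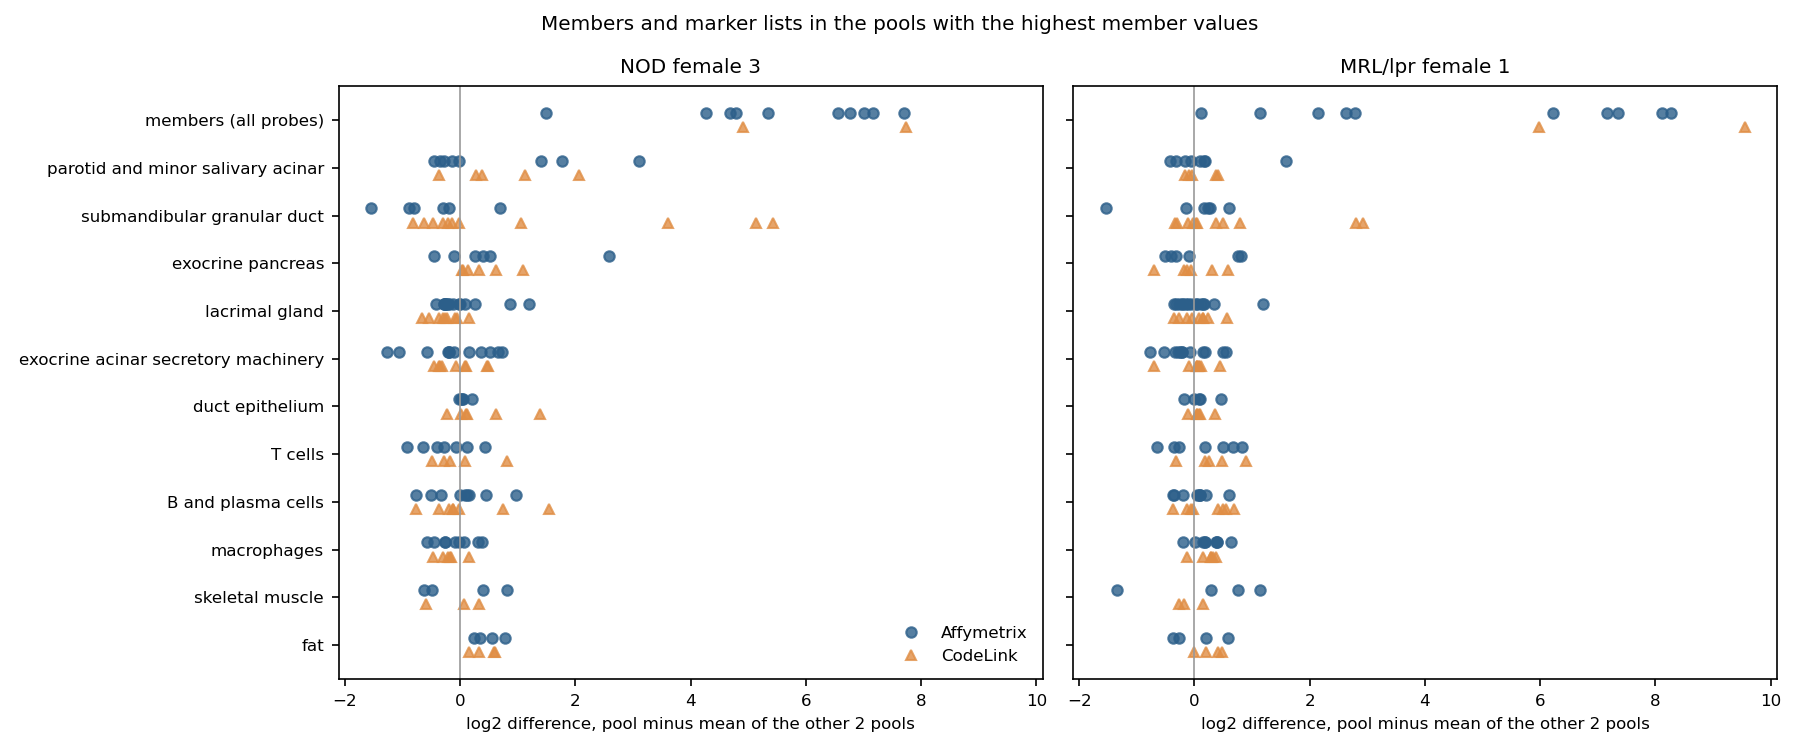
Log2 difference of a pool from the mean of the other 2 pools of its group, for NOD female 3 and MRL/lpr female 1, with a point per tested gene (circles Affymetrix, triangles CodeLink). The top line holds all member probes. They lie to the right of most list genes in both panels, apart from Klk1b22/Klk1b9, which lies among the list genes in MRL/lpr female 1. The lacrimal gland genes mostly lie around 0, with medians of -0.19 on Affymetrix and -0.26 on CodeLink in NOD female 3.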

How the data were processed

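Lacrimal gland RNA of 4 groups (MRL/lpr and NOD, each sex) was measured with 3 pools per group on each of 2 platforms, as the labels give them. The CodeLink intensity values were background-subtracted and scaled to the array median by the authors' image software, and per the file headers each spot carries a quality flag. The Affymetrix intensity values are signals that the authors deposited from the scanner software, and their trimmed means ran from 26.9 to 74.1. They shared no common scale, and all were therefore rescaled per array, with 500 as the trimmed mean after leaving out 2% at each end. Array number limits the precision: with 3 pools a group, limma p-values rest on the spread between pools within all 4 groups. That spread is also drawn towards the spread of other probes, and none of it is spread between single animals.

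Probes were named from platform annotation. On CodeLink 11377 of 17440 probes had 1 gene and 6063 none, and on Affymetrix 20380 of 22626 probe sets had 1 gene, 691 several and 1555 none. Where a gene had several probes the brightest one stood for it in counts over genes. Probes above 0.5 (CodeLink) or 100 (Affymetrix) on at least 3 arrays were tested. limma 3.58.1 in R 4.3.3 (lmFit, contrasts, eBayes with an intensity trend) was run on log2(value + 0.5) or log2(value + 50) over all 12 arrays of a platform, with Benjamini-Hochberg adjustment over all tested probes and a threshold of 0.05, and was tested on simulated data. This replaced the methods' t-test, which was run as an alternative.

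A ratio against an Affymetrix signal at or under 100, or a CodeLink spot flagged as background, was taken against that floor and is written as at least. Likewise, a ratio with a saturated spot on top is a lower bound. The members and the marker lists were chosen with earlier results of these data known. Named genes were all members, the 10 genes most like Bpifa2 and Klk1, the genes that stood apart on both platforms, and up to 4 genes of each list with the widest difference between NOD females, plus any needed for a range. Alternatives were the pseudocount, the filter, the scaling, the trend, the replicate block, spot flags, the t-test and each array left out. Sequences came from RefSeq (GRCm38.p6), read with Python 3.11.15.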

Additional observations from a re-analysis of the deposited data

Results flagged for a closer look

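CodeLink probes without a gene name enter the shares over all probes above, but no count or correlation over genes. A signal appeared there in the same pools. Of 4066 such probes tested, 12 (0.295%) were at least 4-fold above both other pools in NOD female 3 and 3 (0.0738%) in MRL/lpr female 1. NOD male 1 had 2, NOD male 2 had 1 and the other 8 pools had 0. All 3 of MRL/lpr female 1 were among the 12 of NOD female 3. The brightest of the shared probes read 171.65 in MRL/lpr female 1 and 272.54 in NOD female 3, the next 102 and 184, and the dimmest 12.7 and 84.4. In NOD female 2 these 3 probes read 3.58, 2.59 and 1.39.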

How the results depend on the processing

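Most values kept their direction and their side of the threshold. Of values for single member probes, 202 stayed on their side, 7 passed the threshold where they had not, and 3 changed sign. The number of member probes past the threshold in MRL/lpr on Affymetrix was 0, and ranged from 0 to 2 with single arrays left out. With signals as deposited it was 2, Bpifa2 and Amy1, the only 2 of 10 to pass the filter there. In that fit limma gave the pooled error full weight, so Bpifa2 was tested with an SD of 0.351 in place of its own 2.25, and the 2 calls do not reflect the spread of these pools. Over all probes, the methods' t-test called 1652 on CodeLink and 223 on Affymetrix after adjustment, and 3122 on Affymetrix before it. Signals as deposited gave 601 on Affymetrix. With single arrays left out, the counts ran from 2013 to 3064 on CodeLink and from 1478 to 2193 on Affymetrix. The changes of sign were all without MRL/lpr female 1: Amy1 ranged from -0.56 to 2.53 on CodeLink and from -0.33 to 3.25 on Affymetrix, and Smr3a from -0.016 to 3.66. The median NOD difference of the member probes ranged from 3.53 to 7.31 on CodeLink (5.63 with all arrays) and from 0.65 to 4.58 on Affymetrix (2.84 with all arrays), the lowest on Affymetrix without NOD female 3. Genes that stood apart in NOD female 3 on both platforms, 3 in the report, numbered 9 at a ratio of 2 and 6 with a smaller pseudocount, 13 on CodeLink alone and 9 on Affymetrix alone; in MRL/lpr female 1 they numbered 6 on Affymetrix alone. The single-platform counts, the smaller pseudocount and the signals as deposited for these counts were chosen after seeing the data. The cause of these shifts was not tested. A single-platform count does not ask for the other platform, but it does ask for the minimum level. It also runs over other genes, 9528 on Affymetrix and 8728 on CodeLink in place of 6370, so these counts are not like for like. Without MRL/lpr female 1, NOD female 2 or NOD female 3, both Dcpp probe sets failed the filter and could not be fitted.

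Whether the shared replicate numbers pair the samples was not settled. Over 12 pairs, the correlation of their deviations ran from -0.0433 to 0.0955, and 5 correlated best with their own number. Equally numbered arrays across platforms share an RNA preparation per the methods. The correlations of those arrays ran from 0.0139 in NOD males to 0.304 in MRL/lpr females. These ranges overlap, so the low values do not exclude pairing. With the replicate block, 0 member probes passed on either platform, and 2873 CodeLink and 2095 Affymetrix probes did.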
